A study of Mus musculus with 24 samples.

Results

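Amino acid transporters of mouse liver were followed over 1 circadian cycle. The members were all probe sets with a single gene symbol in solute carrier families Slc1, Slc3, Slc6, Slc7, Slc36, Slc38 and Slc43. This gave 66 of 28815 probe sets, for 64 of the 19935 genes tested: 7 of family Slc1, 2 of Slc3, 21 of Slc6, 16 of Slc7, 4 of Slc36, 11 of Slc38 and 3 of Slc43. The symbol pattern also took in 2 opposite-strand genes, Slc6a19os and Slc7a6os, which are named after a neighbouring transporter gene and are not carriers themselves. Family Slc6 includes carriers of neurotransmitters, taurine, betaine and creatine, so the set is wider than its name.

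Livers came from adult male C57BL/6 mice that had been entrained for 4 weeks to 12 h of light and 12 h of dim red light and were then kept in constant dim red light. They were harvested every 3 h on the second cycle after that change, and 3 livers per time, each on its own Affymetrix array (24 arrays), were measured at CT00, CT03, CT06, CT09, CT12, CT15, CT18 and CT21. The labels name 4 mice per harvest but 3 biological replicates, and the series text names 4 time points, whereas the samples are labelled with 8. Circadian time (CT) is counted in hours from subjective dawn, and the hours from CT12 on are called subjective night, the active phase of mice.

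Hepatocytes take up amino acids from portal blood for gluconeogenesis, urea synthesis, protein synthesis and glutathione synthesis, and they return glutamine and other amino acids to the circulation. Sodium-coupled carriers of family Slc38 (systems A and N) and of families Slc1 and Slc6 load the cell against a gradient, while Slc43 carriers are facilitative and most Slc7 carriers exchange one amino acid for another. Several Slc7 light chains reach the membrane only when joined to a heavy chain encoded by Slc3a1 or Slc3a2.

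The deposited values are taken as log2 values relative to the median of each probe set over all arrays, so no level of a gene is known and carriers cannot be ranked by abundance. A trace of brightness is left in the rounding steps. It put 12 of the 66 probe sets in a brighter class (8 to 16 on the log2 scale before centring) and the other 54 in a dimmer class (4 to 8). The 12 genes of the brighter class were Slc1a2, Slc3a1, Slc3a2, Slc6a6, Slc6a9, Slc6a12, Slc6a13, Slc7a2, Slc38a2, Slc38a3, Slc38a4 and Slc43a3. Of 7 tested hepatocyte markers, among them Alb and Apoa1, all 7 had a brighter probe set. The clock genes checked followed their known order, with fitted peaks of Nr1d1 at 7.29 h, Dbp at 10.1 h, Per2 at 15.2 h and Arntl at 22.7 h.

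A 24 h wave was fitted to the 24 arrays of every gene, and a gene was called rhythmic at an adjusted p under 0.05 (limma's moderated F, Benjamini-Hochberg adjustment over all genes). Of the 64 members 11 were rhythmic (17.2%), against 13.8% of all genes. At an unadjusted p under 0.05 there were 13. Shares of all genes at an unadjusted p were not counted, here or for the other tests and lists below. The widest swings belonged to the cationic amino acid carrier gene Slc7a2 (2.33-fold from trough to peak), the system A carrier gene Slc38a2 (1.83-fold) and the system N glutamine carrier gene Slc38a3 (1.52-fold). These 3 (4.69%) were also the only members both rhythmic and at or above 1.5-fold, against 2.12% of all genes. The median fold of all 64 members was 1.06, against 1.07 for all genes, and that of the 11 rhythmic members was 1.32, against 1.26 for all rhythmic genes. With fewer cells of a type and less RNA per cell not told apart in whole liver, every value is one of the tissue.

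**Figure D1:**
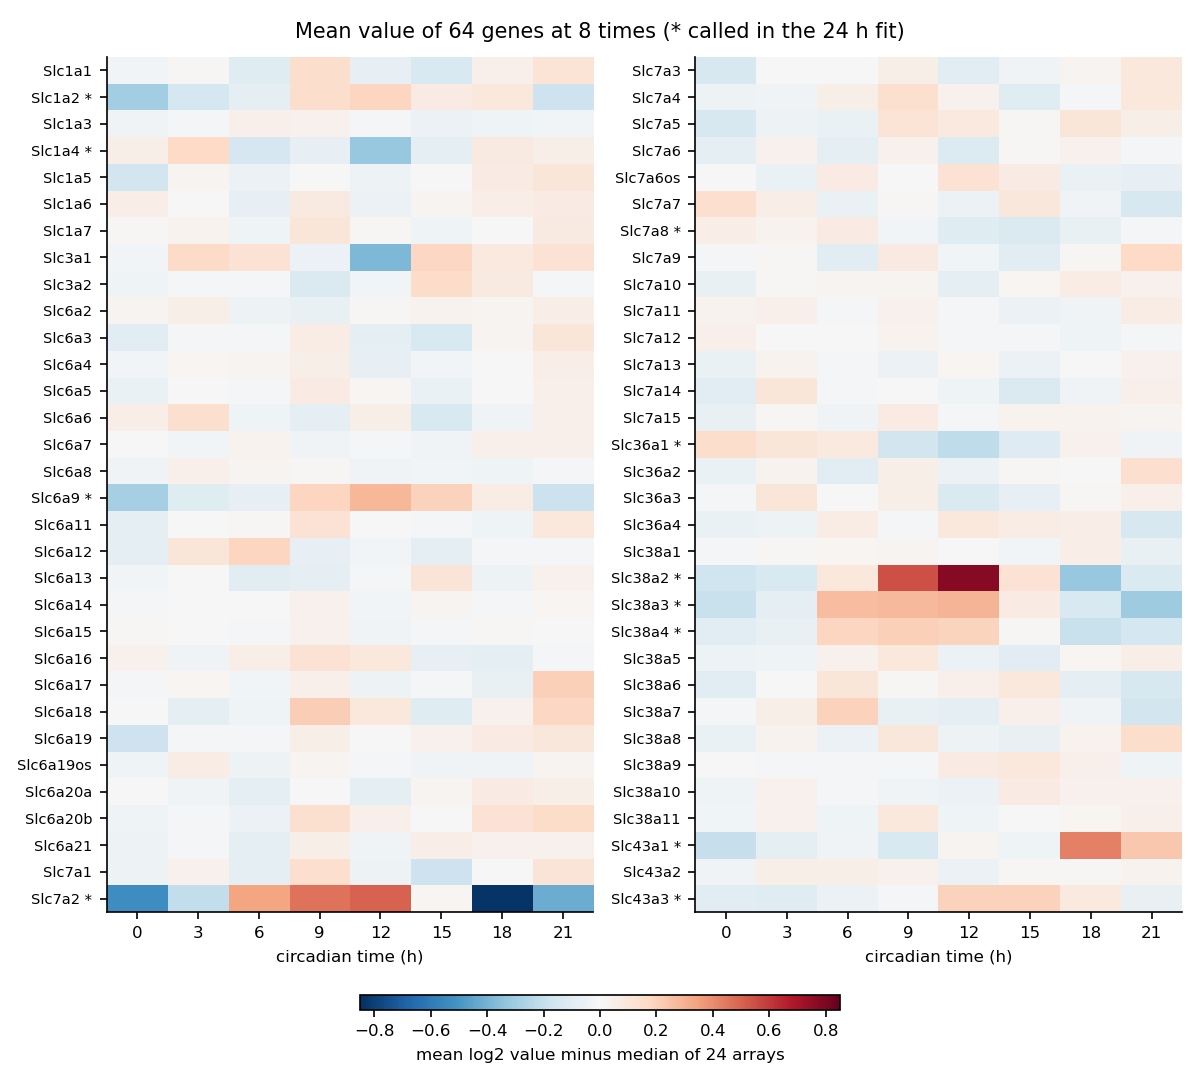
Mean log2 value (colour, relative to the median of the 24 arrays) of the 64 genes in rows at the 8 circadian times in columns, with 3 arrays per mean and an asterisk on the 11 genes called in the 24 h fit. Slc7a2, Slc38a2, Slc38a3 and Slc38a4 are high from CT06 or CT09 to CT12 and low from CT18 to CT00, and most other rows stay near 0.

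The calls were unevenly spread over the brightness classes. Of the 12 members with a brighter probe set 7 were rhythmic (58.3%), against 33.6% of the 2744 such genes. Of the other 52 members 4 were rhythmic (7.69%), against 10.7% of the 17191 other genes. The 7 brighter ones were Slc7a2, Slc38a2, Slc38a3, Slc38a4, Slc6a9, Slc1a2 and Slc43a3, and their fitted peaks all fell between 9.08 h and 14.04 h, around a mean of 11.0 h. The 4 dimmer ones, Slc43a1, Slc1a4, Slc36a1 and Slc7a8, peaked between 18.03 h and 2.63 h of the next day, around 23.5 h. The mean resultant length is 0 for scattered and 1 for equal peak times. It was 0.895 for the first set, 0.693 for the second and 0.321 for all 11 rhythmic members. For all rhythmic genes it was 0.162, and for those with a brighter probe set 0.177. Sets of 7 or 4 genes give long resultants more easily than large sets, so these values are not like for like. The split by class was looked at after the peak times were known, so these values are a description. Taken by day and night, 6 members peaked in the subjective day (9.38%, against 8.02% of all genes) and 5 in the subjective night (7.81%, against 5.82%). The peaks of Slc6a9 and Slc1a2 lay within 1 SE of CT12 on the night side, and their earliest peaks over the refits were 11.97 h and 11.76 h. Those of Slc1a4 (23.2 h, SE 0.989 h) and Slc36a1 (0.688 h, SE 1.04 h) lay within 1 SE of CT00, so this split is not firm. In windows of 6 h, 2 peaked from CT00 to CT06 (3.12%, against 3.44%), 4 from CT06 to CT12 (6.25%, against 4.57%), 3 from CT12 to CT18 (4.69%, against 3.43%) and 2 from CT18 to CT24 (3.12%, against 2.39%).

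**Figure D2:**
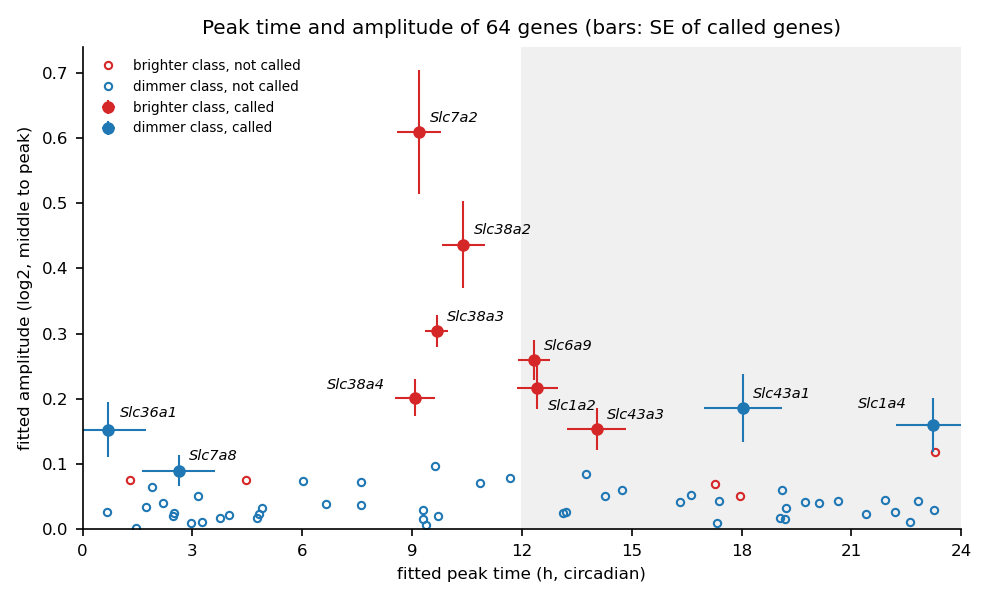
Fitted peak time (x axis, h) and amplitude (y axis, log2 from the middle to the peak of the wave) of the 64 genes, with filled points and SE bars for the 11 called ones, red for the brighter class and blue for the dimmer class, and grey shading for the subjective night. The 7 filled red points lie between 9.08 and 14.04 h, and the 4 filled blue points on either side of CT00.

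Slc7a2 (probe set 10571444) encodes CAT2, a carrier of arginine, lysine and ornithine. The log2 values of Slc7a2, one per array, were -1.0003, -0.54 and -0.039 at CT00, -0.28, -0.45 and 0.11 at CT03, 0.10, 0.32 and 0.58 at CT06, and 0.53, 0.19 and 0.66 at CT09. From CT12 on they were 0.54, 0.13 and 0.83 at CT12, 0.65, -0.65 and 0.039 at CT15, -0.86, -0.98 and -0.67 at CT18, and -0.48, -0.35 and -0.43 at CT21. All 9 arrays from CT06 to CT12 lay above all 6 arrays of CT18 and CT21. The fitted wave spanned 2.33-fold (amplitude 0.61 ± 0.095, SE, log2) with a peak at 9.19 ± 0.597 h (SE) (adjusted p = 0.000192, limma). The arrays of CT15 ranged over most of this swing (0.015 ± 0.65, SD, n = 3), and so did those of CT00 (-0.53 ± 0.48, SD, n = 3). At CT00 the clock gene Dbp was also lowest in replicate 1 (-1.94) and highest in replicate 3 (-0.045). The part of this difference between livers in the Slc7a2 values was not tested.

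Slc38a2 (probe set 10431894) encodes SNAT2, a sodium-coupled system A carrier of small neutral amino acids whose transcript is known to be induced by amino acid shortage. The log2 values of Slc38a2, one per array, were -0.43, -0.20 and 0.12 at CT00, -0.14, -0.25 and 0.0065 at CT03, -0.0065, -0.081 and 0.35 at CT06, and 0.65, 0.36 and 0.64 at CT09. From CT12 on they were 0.79, 0.55 and 0.97 at CT12, 0.25, -0.054 and 0.17 at CT15, -0.31, -0.46 and -0.20 at CT18, and -0.28, 0.015 and -0.11 at CT21. The 6 arrays of CT09 and CT12 were the 6 highest of the 24. The fit gave 1.83-fold (amplitude 0.44 ± 0.067, SE, log2) and a peak at 10.4 ± 0.583 h (SE) (adjusted p = 0.000142, limma). The observed means were more pointed than the wave, with 0.77 ± 0.21 at CT12 and 0.12 ± 0.16 at CT15 (SD, n = 3 each). A 12 h component had an amplitude of 0.24 and just missed the threshold (adjusted p = 0.0541, unadjusted p = 0.000335). It passed without CT00 replicate 1 (adjusted p = 0.0183), CT03 replicate 3 (0.0465), CT06 replicate 3 (0.0254), CT09 replicate 2 (0.0433) or CT15 replicate 1 (0.0452), and also under 4 of the other settings.

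Slc38a3 (probe set 10596718) encodes SNAT3, the system N carrier of glutamine, histidine and asparagine, and gave the smallest p of all members. The log2 values of Slc38a3, one per array, were -0.26, -0.20 and -0.11 at CT00, -0.0051, -0.23 and 0.0043 at CT03, 0.18, 0.29 and 0.31 at CT06, and 0.30, 0.22 and 0.30 at CT09. From CT12 on they were 0.30, 0.22 and 0.35 at CT12, 0.22, -0.0043 and 0.0055 at CT15, -0.13, -0.19 and -0.085 at CT18, and -0.30, -0.25 and -0.36 at CT21. At most times the 3 arrays lay close together, and the 9 arrays from CT06 to CT12 were all above the 12 arrays of CT18, CT21, CT00 and CT03. The fit gave 1.52-fold (amplitude 0.30 ± 0.024, SE, log2) and a peak at 9.67 ± 0.308 h (SE) (adjusted p = 1.06e-08, limma). Its means stayed level from CT06 to CT12, at 0.26 ± 0.07, 0.27 ± 0.044 and 0.29 ± 0.066 (SD, n = 3 each).

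Slc38a4 (probe set 10431915) encodes SNAT4, a further system A carrier known for its strong expression in liver. The log2 values of Slc38a4, one per array, were -0.21, -0.11 and 0.053 at CT00, -0.087, -0.053 and -0.056 at CT03, 0.10, 0.14 and 0.31 at CT06, and 0.16, 0.12 and 0.32 at CT09. From CT12 on they were 0.20, 0.11 and 0.26 at CT12, 0.069, -0.16 and 0.13 at CT15, -0.24, -0.22 and -0.10 at CT18, and -0.11, -0.089 and -0.25 at CT21. The 9 arrays from CT06 to CT12 lay above all 6 arrays of CT18 and CT21. The fitted swing was 1.32-fold (amplitude 0.20 ± 0.029, SE, log2) with a peak at 9.08 ± 0.544 h (SE) (adjusted p = 5.9e-05, limma). In the RefSeq gene table (GRCm38.p6) Slc38a1, Slc38a2 and Slc38a4 follow each other with no protein-coding gene between them. The rhythmic pair Slc38a2 and Slc38a4 thus lie side by side, and Slc38a1 beside Slc38a2 was not called (1.03-fold, adjusted p = 0.880). The value of Slc38a1 is a mean over probe sets 10431872 and 10431874, neither of them called alone. Their fitted peaks were 9.80 h (1.09-fold, adjusted p = 0.343, limma) and 21.95 h (1.03-fold, adjusted p = 0.920, limma). The other 7 tested Slc38 genes, Slc38a5 to Slc38a11, were not called either, and the 11 members of the family gave 3 calls in all.

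Slc6a9 (probe set 10507500) encodes the glycine carrier GLYT1, and Slc1a2 (probe set 10474141) the glutamate carrier GLT-1, which in liver is known from the hepatocytes around the central vein. The log2 values of Slc6a9, one per array, were -0.32, -0.30 and -0.22 at CT00, 0.0085, -0.012 and -0.30 at CT03, -0.0085, -0.087 and -0.12 at CT06, and 0.21, 0.28 and 0.067 at CT09. From CT12 on they were 0.15, 0.36 and 0.34 at CT12, 0.11, 0.18 and 0.31 at CT15, 0.027, -0.025 and 0.19 at CT18, and -0.042, -0.19 and -0.31 at CT21. All 9 arrays from CT09 to CT15 were above all 6 arrays of CT21 and CT00. The fitted swing of Slc6a9 was 1.43-fold (amplitude 0.26 ± 0.031, SE, log2) and its peak lay at 12.3 ± 0.450 h (SE) (adjusted p = 4.32e-06, limma). The log2 values of Slc1a2, one per array, were -0.29, -0.26 and -0.34 at CT00, -0.37, -0.01 and -0.061 at CT03, -0.22, -0.034 and 0.01 at CT06, and 0.18, 0.17 and 0.10 at CT09. From CT12 on they were 0.17, 0.11 and 0.26 at CT12, -0.13, 0.15 and 0.19 at CT15, 0.018, 0.13 and 0.13 at CT18, and -0.15, -0.10 and -0.29 at CT21. The 6 arrays of CT09 and CT12 were above all 6 arrays of CT21 and CT00, and at CT15 replicate 1 fell below the other 2 arrays. Slc1a2 had 1.35-fold (amplitude 0.22 ± 0.032, SE, log2) and a peak at 12.4 ± 0.568 h (SE) (adjusted p = 0.000103, limma). Of 10 markers of hepatocytes around the central vein 3 were rhythmic, Lgr5 at 6.34 h, Cyp2e1 at 11.0 h and Oat at 8.96 h. Of all genes 13.8% were, and 33.6% of those with a brighter probe set, which 6 of the 10 had. At an unadjusted p under 0.05 there were 6, with Lect2 (7.19 h), Tbx3 (6.04 h) and Axin2 (6.14 h) added. Rhbg, Cyp27a1, Cyp1a2 and Glul did not pass (1.03 to 1.08-fold, adjusted p from 0.812 to 0.874). The list mean was highest at CT06 (0.10) and lowest at CT21 (-0.097). Of 7 periportal markers Hal and Arg1 were rhythmic, and the list mean ran from -0.030 at CT18 to 0.056 at CT06. The part of these markers in the Slc1a2 wave was not tested.

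**Figure D3:**
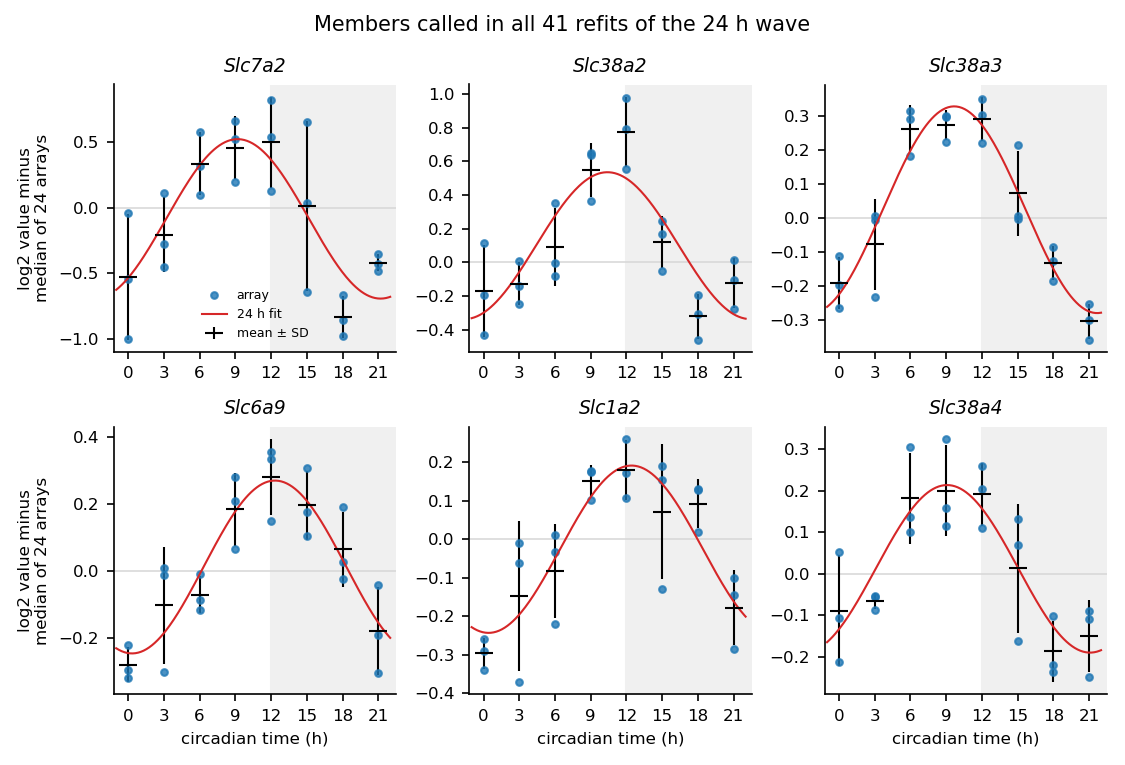
Log2 value relative to the median of the 24 arrays (y axis) against circadian time (x axis, h) for 6 genes, with blue points for single arrays, black marks for the mean and SD of 3 arrays, a red line for the 24 h fit and grey shading for the subjective night. All 6 genes are high between CT09 and CT12 and low at CT18, CT21 or CT00, and the swing of Slc7a2 is the widest at 2.33-fold.

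These 6 genes were called in each of 41 refits, which include leaving out any 1 array or any whole time point. A minimum of 1.5-fold, which is no refit, keeps Slc7a2, Slc38a2 and Slc38a3 alone. Their lowest and highest folds over those refits were 2.08 and 2.71 for Slc7a2, 1.60 and 2.02 for Slc38a2, and 1.49 and 1.57 for Slc38a3. Over the same refits no peak of the 6 moved by more than 0.836 h.

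The Slc43 family gave 2 calls with different timing. Slc43a3 (probe set 10473384) encodes a carrier known to transport purine nucleobases and not amino acids. Its means were -0.10 ± 0.097 at CT03, 0.20 ± 0.036 at CT12 and 0.19 ± 0.25 at CT15 (SD, n = 3 each), and replicate 3 of CT15 stood above all other arrays at 0.48. The fit gave 1.24-fold with a peak at 14.04 ± 0.801 h (SE) (adjusted p = 0.00456), and the call was lost without CT12 (adjusted p = 0.0514). The test over the 8 times did not pass (adjusted p = 0.0998). Slc43a1 (probe set 10473367) encodes LAT3, a facilitative carrier of branched-chain and other large neutral amino acids. It was high at CT18 (0.43 ± 0.11) and CT21 (0.23 ± 0.13) and lowest at CT00 (-0.19 ± 0.024; SD, n = 3 each). The 3 arrays of CT18 were above all arrays of the earlier times, and only 1 array of CT21 (0.308) passed the lowest of them (0.306). The 24 h fit gave 1.29-fold with a peak at 18.03 ± 1.07 h (SE) (adjusted p = 0.0432), while the F test of the 8 time means gave a smaller adjusted p of 0.00434. The 24 h call was lost without any 1 of CT03 replicates 1 or 2, CT06 replicate 1, CT09 replicates 2 or 3, CT12 replicates 2 or 3, CT18 replicates 1, 2 or 3, CT21 replicates 1, 2 or 3 (adjusted p from 0.0502 to 0.114). It was also lost without the time points CT03 (0.0764), CT09 (0.0916), CT12 (0.0722), CT18 (0.549), CT21 (0.141), with array weights (0.0594) and after quantile normalization (0.0554). The test over 8 times lost it only without CT18 (0.138). In the RefSeq table both genes lie on the same chromosome with 1 protein-coding gene between them, and Slc43a2 was not called (1.03-fold, adjusted p = 0.870).

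Of the members called in the dimmer class, 3 had fitted peaks within a few hours of CT00. Slc1a4 (probe set 10384539) encodes ASCT1, an exchanger of alanine, serine and cysteine. It was highest at CT03 (0.17 ± 0.049) and lowest at CT12 (-0.32 ± 0.14; SD, n = 3 each). The fit gave 1.25-fold with a peak at 23.2 ± 0.989 h (SE) (adjusted p = 0.0262), and the call was lost without CT12 replicates 1 or 2 (adjusted p = 0.0723 and 0.0649) and without the time points CT03 (0.0827), CT12 (0.317). Slc36a1 (probe set 10376216) encodes PAT1, a proton-coupled carrier of small amino acids found at the lysosome and the cell surface. It was highest at CT00 (0.15 ± 0.11) and lowest at CT12 (-0.22 ± 0.15; SD, n = 3 each). The fit gave 1.24-fold with a peak at 0.688 ± 1.04 h (SE) (adjusted p = 0.0364), and the test over the 8 times did not pass (adjusted p = 0.215). The call was lost without any 1 of CT00 replicates 1 or 2, CT03 replicate 2, CT09 replicate 3, CT12 replicates 2 or 3, CT15 replicate 3, CT21 replicate 1 (adjusted p from 0.0553 to 0.0978) and without the time points CT00 (0.135), CT03 (0.0990), CT06 (0.0578), CT09 (0.0644), CT12 (0.220), CT15 (0.0503). Slc7a8 (probe set 10419854) encodes LAT2, a light chain that exchanges neutral amino acids. Its mean was highest at CT06 (0.067 ± 0.15) and lowest at CT15 (-0.12 ± 0.03; SD, n = 3 each), with overlapping arrays. The fit gave 1.13-fold with a peak at 2.63 ± 0.990 h (SE) (adjusted p = 0.0262), and the test over the 8 times did not pass (adjusted p = 0.298). The 24 h call was lost without CT12 replicate 2, CT15 replicates 1 or 3 (adjusted p from 0.0502 to 0.0527), without the time points CT00 (0.0709), CT12 (0.0826), CT15 (0.147), CT18 (0.0510) and without the 4 arrays farthest from their own time (0.119). The mean of 6 bile duct markers was highest at CT00 (0.12) and lowest at CT12 (-0.10). Of these markers Sox9 (0.28 and -0.32) and Krt19 (0.13 and -0.17) were highest and lowest at these times. Muc1 and Krt7 were lowest at CT15, Cftr and Epcam at CT06, and Krt7 was highest at CT09. Sox9 was the 1 rhythmic marker (peak at 22.7 h). The part of these markers in the Slc1a4 and Slc36a1 results was not tested.

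An F test of equal means at the 8 times, which assumes no wave, called 9 members (14.1%), against 10.9% of all genes. At an unadjusted p under 0.05 it had 17, with no share of all genes counted beside it. Of the 9, 8 were also rhythmic over 24 h. The other was Slc1a1, which encodes EAAC1, a carrier of glutamate and cysteine. Slc1a1 was highest at CT09 (0.15 ± 0.11) and CT21 (0.11 ± 0.035) and lowest at CT15 (-0.13 ± 0.15; SD, n = 3 each; adjusted p = 0.0410, 24 h adjusted p = 0.889). Its call was lost without any 1 of CT00 replicates 1, 2 or 3, CT03 replicate 2, CT06 replicates 1, 2 or 3, CT09 replicates 1 or 2, CT12 replicates 1 or 2, CT18 replicates 1 or 2, CT21 replicates 2 or 3 (adjusted p from 0.0533 to 0.0971). It was lost as well without the time points CT00 (0.0517), CT06 (0.0825), CT09 (0.109), CT12 (0.0649), CT21 (0.103) and with a small nucleolar RNA covariate (0.0826). In this test Slc1a4 (adjusted p = 0.0418) was lost without any 1 of CT00 replicates 1 or 2, CT03 replicates 1, 2 or 3, CT06 replicate 2, CT09 replicates 1 or 2, CT12 replicates 1 or 2, CT18 replicates 2 or 3, CT21 replicate 1 (adjusted p from 0.0522 to 0.146), without the time points CT00 (0.0517), CT03 (0.133), CT12 (0.305), CT18 (0.0526) and with that covariate (0.0726).

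A 12 h component was called in 1 member (1.56%), against 0.577% of all genes. An unadjusted p under 0.05 was found for 12 members, and the share of all genes at that threshold was not counted. The gene was Slc6a18, which encodes a neutral amino acid carrier known from the kidney tubule. Its means were highest at CT09 (0.21 ± 0.10) and CT21 (0.18 ± 0.14) and lowest at CT15 (-0.10 ± 0.12) and CT03 (-0.074 ± 0.049; SD, n = 3 each). The 12 h amplitude was 0.14 (adjusted p = 0.0450). The call was lost without any 1 of CT00 replicates 2 or 3, CT03 replicates 2 or 3, CT06 replicates 1 or 2, CT09 replicates 1 or 2, CT12 replicate 3, CT15 replicates 2 or 3, CT18 replicate 1, CT21 replicates 2 or 3 (adjusted p from 0.0565 to 0.119). It was lost without each of the 8 time points, with array weights (0.0512) and without the 4 farthest arrays (0.106). Slc6a18 and Slc1a1 are in the dimmer class. There the uncalled Slc1a7, Slc6a5, Slc7a1, Slc7a4 and Slc38a5 also had their highest mean at CT09 and lowest at CT15. The share of all genes with this pattern was not counted. The mean of 6 lymphocyte markers, none of them rhythmic, was also highest at CT09 (0.11) and lowest at CT15 (-0.072). Of these markers Cd8a and Cd3d had both times. Nkg7 and Cd3e were lowest at CT15 but highest at CT03 and CT21. Ms4a1 (highest at CT06, lowest at CT21) and Cd79a (CT03 and CT18) had neither. The values of all genes spread widest on CT21 replicate 3, CT15 replicate 2 and CT09 replicate 2 (interquartile range 0.213, 0.186 and 0.176). The part of the markers or of these arrays in the Slc6a18 and Slc1a1 values was not tested.

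**Figure D4:**
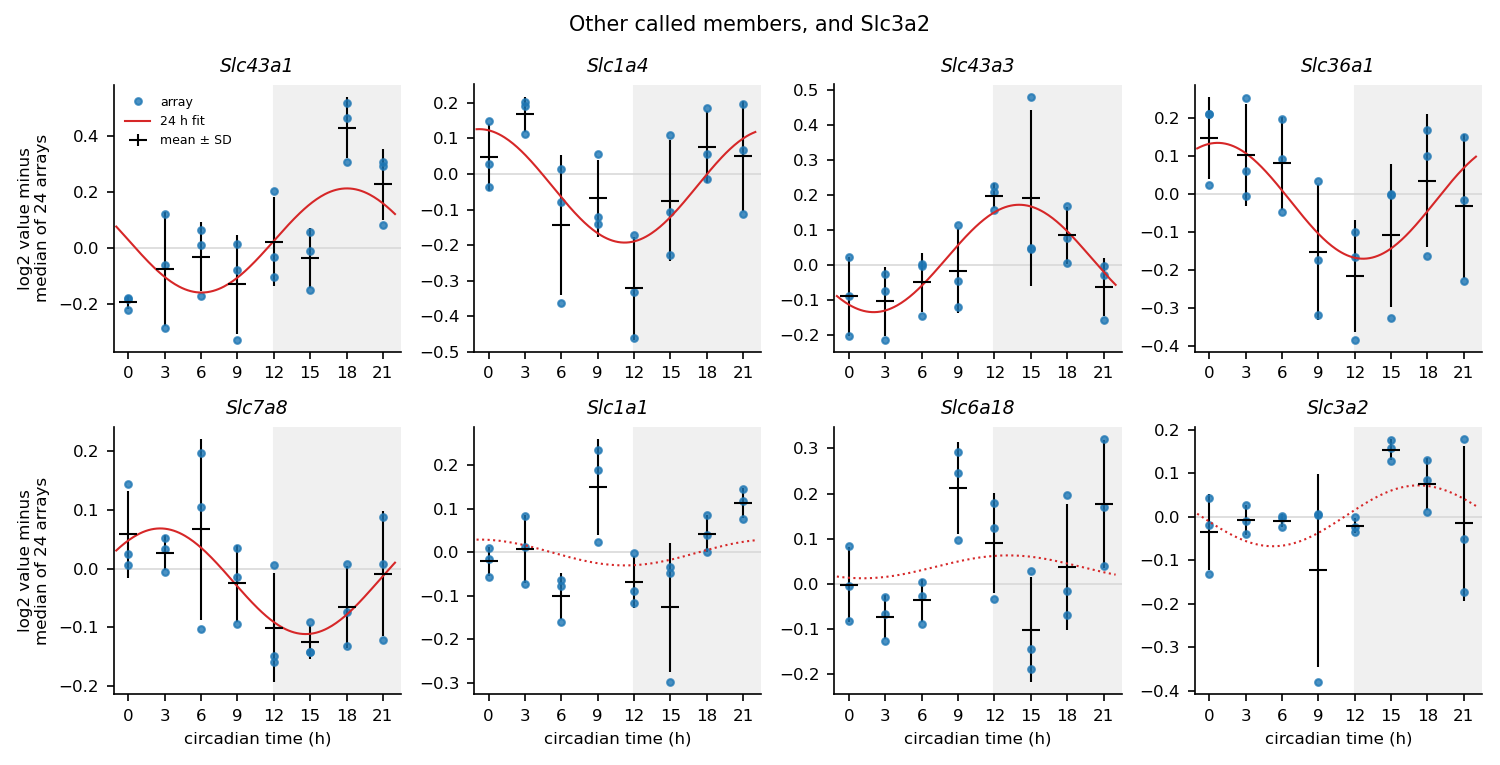
Log2 value relative to the median of the 24 arrays (y axis) against circadian time (x axis, h) for the other 7 called genes and Slc3a2, with blue points for single arrays, black marks for the mean and SD of 3 arrays, grey shading for the subjective night and a red line for the 24 h fit, dotted where it was not called. Slc43a1 has its highest mean at CT18 (0.43), Slc1a4 and Slc36a1 are lowest at CT12, and Slc1a1 and Slc6a18 are highest at CT09 and CT21.

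Most members, 51 of 64 (79.7%), passed none of the 3 tests, and this share over all genes was not counted. The folds of the 53 members not called in the 24 h fit ran from 1.00 to 1.18 with a median of 1.05, against a median of 1.06 for all uncalled genes. Among these were the other 5 genes of the brighter class. Slc6a6 encodes the taurine carrier (1.11-fold, adjusted p = 0.292), Slc6a12 the betaine carrier (1.11-fold, 0.319) and Slc6a13 a carrier of GABA and taurine (1.07-fold, 0.531). The heavy chain genes Slc3a1 (1.18-fold, 0.577) and Slc3a2 (1.10-fold, 0.349) were the last 2. Slc3a2, the heavy chain partner of LAT2, was highest at CT15 (0.15 ± 0.024, SD, n = 3), but its F test over the 8 times did not pass (adjusted p = 0.351). Slc3a1 had its lowest mean at CT12 (-0.38 ± 0.11) and a wide spread at CT15 (0.18 ± 0.47; SD, n = 3 each), where replicate 1 lay at 0.72 and the other arrays at -0.17 and -0.013. Of the other light chain genes that pair with a heavy chain, Slc7a5 (adjusted p = 0.238), Slc7a6 (0.969), Slc7a7 (0.953), Slc7a9 (0.695), Slc7a10 (0.967) and Slc7a11 (0.599) were not called. The uncalled members with the smallest 24 h p were Slc6a16 (adjusted p = 0.137), Slc7a6os (0.144), Slc36a4 (0.229), Slc7a5, Slc38a6 (0.262), Slc6a6, Slc6a12, Slc3a2, Slc36a3 (0.392) and Slc6a2 (0.393). Slc6a16 passed without CT00 replicate 3 (0.0450) or CT21 replicate 3 (0.0326), and Slc7a6os without CT09 (0.0456).

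**Figure D5:**
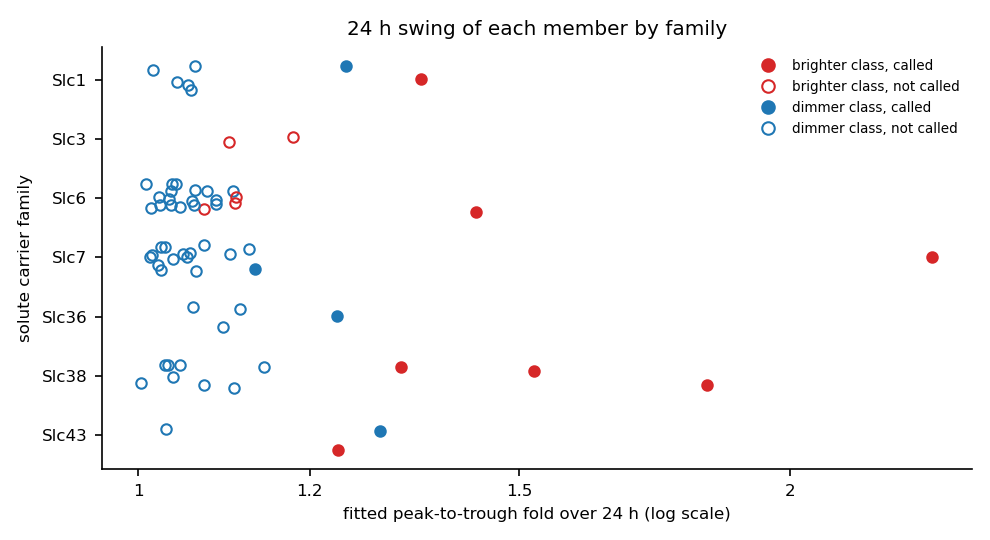
Fitted peak-to-trough fold over 24 h (x axis, log scale) of each of the 64 genes by family (y axis, with points spread at random within a family), filled where the gene was called and coloured by brightness class. The Slc7, Slc38 and Slc6 families hold the widest swings, with 2.33, 1.83 and 1.43-fold, and the 53 uncalled genes lie at or under 1.18-fold.

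Promoters were compared between rhythmic members. RefSeq promoter sequences (GRCm38.p6, 250 bases before to 50 after the gene start) were at hand for 47 of the 64 members and 8 of the 11 rhythmic ones. Slc7a2, Slc38a3 and Slc43a3 were not among them. The letters searched on both strands were the E-box CACGTG bound by CLOCK and BMAL1, the D-box TTATGTAA of PAR bZIP factors, AGGTCA as the core of ROR elements, and TGATGNAA as found in amino acid response elements bound by ATF4. The 12 promoters of the 8 genes held an E-box in 2, a D-box in 0, AGGTCA in 2 and TGATGNAA in 1. Of all 32851 promoters 7.15% held the E-box, 0.938% the D-box, 16.3% AGGTCA and 3.97% TGATGNAA. Shown are the promoter of Slc38a2, which had the largest fold among genes with a sequence and holds none of these letters, and those of Slc43a1, Slc1a4 and Slc36a1, picked after the matches were seen because they hold an E-box or TGATGNAA. Capitals mark the matches, and each sequence reads from 5′ to 3′ on the strand of its gene.
Slc38a2, chr15:96699679-96699978, minus strand: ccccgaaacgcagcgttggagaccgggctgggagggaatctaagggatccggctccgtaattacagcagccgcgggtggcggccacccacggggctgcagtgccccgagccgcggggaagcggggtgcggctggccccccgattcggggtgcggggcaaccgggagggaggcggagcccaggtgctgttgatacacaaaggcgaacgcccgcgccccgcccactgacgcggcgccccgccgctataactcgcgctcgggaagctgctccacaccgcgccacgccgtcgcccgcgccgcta
Slc43a1, chr2:84840073-84840372, plus strand: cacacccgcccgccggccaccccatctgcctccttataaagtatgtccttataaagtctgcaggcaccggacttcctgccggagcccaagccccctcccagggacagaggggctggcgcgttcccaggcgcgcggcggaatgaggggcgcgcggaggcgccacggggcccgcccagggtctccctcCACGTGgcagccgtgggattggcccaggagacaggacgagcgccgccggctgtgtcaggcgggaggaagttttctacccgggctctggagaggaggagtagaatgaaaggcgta
Slc1a4, chr11:20332664-20332963, minus strand: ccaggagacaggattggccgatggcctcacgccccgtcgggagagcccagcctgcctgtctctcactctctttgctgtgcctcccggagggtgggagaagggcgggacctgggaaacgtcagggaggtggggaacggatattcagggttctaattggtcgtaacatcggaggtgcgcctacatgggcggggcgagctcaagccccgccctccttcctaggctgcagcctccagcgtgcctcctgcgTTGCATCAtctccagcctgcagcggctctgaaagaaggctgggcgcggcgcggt
Slc36a1, chr11:55204090-55204389, plus strand: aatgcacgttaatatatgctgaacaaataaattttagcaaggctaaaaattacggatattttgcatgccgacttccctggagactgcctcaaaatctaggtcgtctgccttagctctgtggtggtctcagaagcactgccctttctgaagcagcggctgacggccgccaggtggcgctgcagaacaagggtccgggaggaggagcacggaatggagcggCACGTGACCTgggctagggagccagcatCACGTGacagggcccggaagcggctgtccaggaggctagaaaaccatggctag
In Slc43a1 the E-box began 64 bases before the gene start. In Slc1a4 the match lay on the opposite strand and began 4 bases before the start. Slc36a1 held E-boxes 31 and 3 bases before the start, and the first overlapped an AGGTCA match on the opposite strand. The second AGGTCA match among rhythmic members was in Slc1a2, 44 bases after its start. A match says nothing about binding. Sequence outside this window was not searched, so a promoter without a match does not show that the gene lacks these letters elsewhere.

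Other genes that sense amino acids or act on their carriers were followed from 4 lists, read beside the 13.8% of all genes that were rhythmic. That share was 33.6% for genes with a brighter probe set and 10.7% for the others. In the order below, 2 of 18, 3 of 25, 3 of 15 and 6 of 10 tested genes had a brighter probe set. The lists were chosen with earlier results of these data known, so their counts are a description. In the amino acid response, the program driven by ATF4, 4 of 18 tested genes were rhythmic. These were the pseudokinase gene Trib3 (1.67-fold, peak at 6.63 h), the mTORC1 inhibitor gene Ddit4 (1.45-fold, 19.9 h), and the bZIP factor genes Cebpg (1.17-fold, 14.2 h) and Cebpb (1.37-fold, 11.3 h). Atf4 itself (1.19-fold, adjusted p = 0.0706) and the target Asns (1.28-fold, adjusted p = 0.745) were not called in this fit, while Atf4 was in the F test of the 8 time means (adjusted p = 0.0427), with its highest mean at CT00. In mTORC1 amino acid sensing 7 of 25 were rhythmic, led by the folliculin gene Flcn (1.69-fold, 7.81 h), Mtor (1.43-fold, 7.76 h) and the folliculin partner gene Fnip1 (1.51-fold, 9.40 h). Of 15 amino acid carriers of other families 6 were rhythmic, among them the mitochondrial glutamate carrier gene Slc25a22 (1.57-fold, 7.93 h), the histidine and peptide carrier gene Slc15a3 (1.34-fold, 3.66 h) and the aspartate-glutamate carrier gene Slc25a13 (1.25-fold, 12.5 h). Of 10 partners and regulators 6 were rhythmic, with the RNA-binding protein gene Caprin1 (1.56-fold, 23.1 h), the ubiquitin ligase gene Nedd4l (1.64-fold, 22.3 h) and Foxo1 (1.39-fold, 12.2 h) at the smallest p. The counts that peaked in the subjective night were 2 of 4, 3 of 7, 4 of 6 and 5 of 6 for the 4 lists in this order, against 1160 of 2758 for all rhythmic genes. The peaks of Foxo1 (SE 0.560 h), Slc25a13 (SE 0.767 h) and Lamtor3 (12.5 h, SE 0.999 h) lay within 1 SE of CT12 on the night side. That of Cebpb (SE 1.03 h) did so on the day side, and that of Lamtor1 (23.1 h, SE 0.951 h) lay within 1 SE of CT00. These counts are thus not firm.

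Few markers of other cells were called. None of 8 Kupffer cell, 8 endothelial, 6 lymphocyte and 2 red blood cell markers was rhythmic in the limma fit (at an unadjusted p under 0.05 there were 0, 2, 0 and 0), and 1 of 8 stellate cell markers (Pdgfrb, peak at 2.71 h) and 1 of 6 bile duct markers (Sox9) were. The F test of the 8 time means called 2 endothelial markers, Bmp2 (adjusted p = 0.0126, highest at CT12) and Lyve1 (0.0224, highest at CT15). List means over the 8 times ran from -0.14 at CT09 to 0.10 at CT15 for endothelial markers, from -0.067 at CT03 to 0.034 at CT15 for Kupffer cell markers, and from -0.061 at CT21 to 0.079 at CT00 for stellate cell markers. The 7 hepatocyte markers ran from -0.059 at CT18 to 0.043 at CT00.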

How the data were processed

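The labels give Affymetrix Mouse Gene ST 1.0 arrays for all 24 liver samples. The authors deposited 1 normalized value per probe set and array, read here as log2 values because of their range (-2.62 to 2.64). In the deposited table every probe set had a median of 0 over the 24 arrays, and array medians lay between -0.019 and 0.015. For the software and background correction, and for the log base, nothing is stated in the labels or headers. Of 28815 probe sets 21780 had 1 symbol in the platform annotation, 1605 several and 5430 none. Those with 1 symbol were reduced to a mean per gene (19935 genes). Brightness was read from the rounding steps, with 95% of the differences between arrays required to be whole steps.

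Waves of 24 h and 12 h and equality of the 8 time means were tested with limma 3.58.1 (R 4.3.3), moderated F and Benjamini-Hochberg adjustment over all genes, with a threshold of 0.05. Fold is peak over trough of the fitted wave, and SEs are from the delta method. The code was tested on simulated data. No 2 arrays were identical. The number of arrays limits the precision.

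Members and gene lists were chosen with earlier results of these data known. Named are all called members (with each array for the 6 with the largest fold), the 10 uncalled ones with the smallest 24 h p, partners of called members, and the 3 genes with the smallest p of each list. Other genes named, and 3 of the 4 promoters shown, were chosen after their values were seen. So were the times whose single arrays are said to lie above or below others, and such separation is a description. Alternatives were a replicate block, array weights, quantile and median normalization, single probe sets, brighter probe sets alone, robust moderation, a small nucleolar RNA covariate (52 genes), a minimum fold, and leaving out arrays or times.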

Additional observations from a re-analysis of the deposited data

How the results depend on the processing

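The count of 11 members rhythmic over 24 h stayed between 8 and 12 under 38 of 42 settings. It was 7 of 12 tested when the fit held only genes with a brighter probe set (1109 of 2744 genes called, against 2758 of 19935), 6 without CT12 and 3 with a minimum of 1.5-fold (423 genes). Leaving out 1 array gave 7 to 12, with 7 without CT12 replicate 2. The count of 9 members differing over the 8 times was 20 with array weights (4900 genes called, against 2167), with all 9 among them, and 7 to 11 without 1 array. With brighter probe sets alone 881 genes were called. The single 12 h call became 3 with the small nucleolar RNA covariate (202 genes called, against 115), 0 without the 4 arrays farthest from their own time mean (78 genes), and 0 without CT00, CT03, CT09, CT15, CT18 or CT21 (24 to 131 genes). Leaving out 1 array gave 0 to 2 (47 to 188 genes), and quantile normalization gave 1 (64 genes). Some of these fits held fewer genes or arrays, and the causes of the moves were not tested. The peaks of Slc6a9 and Slc1a2 crossed CT12, and that of Slc36a1 crossed CT00 (to 23.97 h), under some refits. Those 4 farthest arrays were CT15 replicates 1 and 2, CT09 replicate 3 and CT18 replicate 3.

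No label pairs livers across times by replicate number. Deviations of arrays with the same number correlated by 0.0937 on average (84 pairs, -0.399 to 0.498), and those with different numbers by -0.0465 (168 pairs, -0.461 to 0.503). The means were 0.153, -0.0101 and 0.139 within numbers 1, 2 and 3, and 15 of 24 arrays correlated best with their own number. What arrays of the same number share was not tested. With the replicate block 11 members were rhythmic over 24 h (2984 genes, against 2758). In that fit 9 differed over the 8 times (2664 genes, against 2167) and 2 had a 12 h component (168 genes, against 115).

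With 3 livers per time on 1 cycle, a wave that repeats daily was not separated from a single rise and fall, and levels before centring are unknown.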
